A study of Cannabis sativa with 12 samples.

Results

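The comparison set 20-day-old hypocotyls (H20) against 15-day-old hypocotyls (H15) of hemp, Cannabis sativa cv. Santhica 27, a cultivar grown for its bast fibers. It covered every contig of the RNA-Seq table, 3622 in all, in 6 of the 12 libraries of the study. Each library came from a pool of 20 whole hypocotyls, with 3 pools at each of 4 ages, counted in days from sowing as H6, H9, H15 and H20. All plants were untreated and grew with 16 h light (25°C) and 8 h darkness (20°C) a day, and all pools belonged to 1 experimental batch, so that H15 and H20 differ in age alone by their labels. The hour of the day at which the pools were taken is not given in the sources used here.

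The hypocotyl is the stem below the cotyledons. It first elongates, then thickens by secondary growth, in which the cambium makes wood inward and phloem with bast fibers outward, and xylem vessels and fibers lay down a secondary wall of cellulose, xylan and, in the wood, much lignin. H15 and H20 both lie within this second phase, and the question for the last interval is which genes still differ once those of the wall are in use at both ages. A contig is an assembled transcript that bears the name of its closest Arabidopsis match, so that the roles given below are those known from Arabidopsis. Of the 3622 contigs, 2655 had an Arabidopsis symbol or locus and 967 had none. The table held only contigs that the study had selected as differing among the 4 ages in these same libraries, and every count below is a count within that selection.

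From H15 to H20, 491 contigs changed, which is 13.6% of those tested. A changed contig had an adjusted p under 0.05 in the quasi-likelihood test of edgeR and differed by more than 2-fold. Of these, 190 contigs (5.25%) were higher in H20 and 301 (8.31%) lower. Without the limit on the fold change, which is how higher and lower are meant for gene lists and single genes below, 614 contigs (17.0%) were higher and 884 (24.4%) lower at an adjusted p under 0.05. These shares of all contigs are the ones beside which the counts of every gene list below are to be read. The median log2 fold change over all contigs was -0.066. With library sizes taken from the deposited contigs alone, 233 changed contigs were higher and 245 lower, so that the share of higher ones among the changed contigs was 48.7% in place of 38.7%. Without the fold limit that scaling gave 762 higher and 702 lower contigs, so that the excess of lower contigs turned into an excess of higher ones.

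The 6 libraries held 16552547 to 25853011 mapped reads each, of which 5333428 to 8422688 lay in the table, and no contig had fewer than 11 reads in any of them. The root mean square difference in log2(RPKM + 1), where RPKM is the read count scaled to the length of the contig and the mapped reads of the library, was 0.28 to 0.45 between pools of H15 and 0.27 to 0.30 between pools of H20. Between the ages it was 0.73 to 0.81. The largest difference within an age was that of H15 replicates 2 and 3, and without replicate 3 of H15 the counts of changed contigs were 217 higher and 261 lower, while without replicate 2 they were 186 and 341. The libraries of the 2 ages did not overlap in RPKM for 478 of the 491 changed contigs, and for 57.5% of all contigs.

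**Figure D1:**
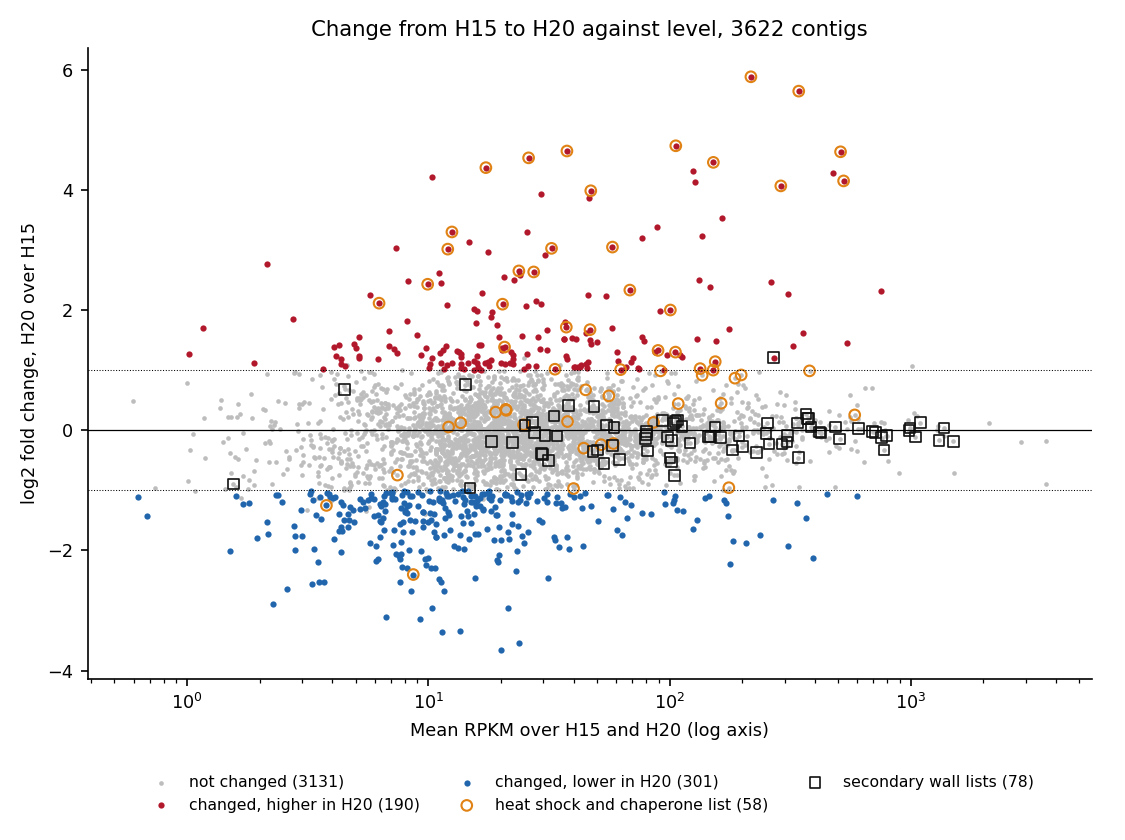
Log2 fold change of H20 over H15 from edgeR for the 3622 contigs (vertical axis) against their mean RPKM over both ages (horizontal, log axis). Red points are the 190 changed contigs that were higher in H20 and blue points the 301 that were lower; orange rings mark the 58 heat shock and chaperone contigs, which make up 15 of the 28 points above 3, and black squares the 78 secondary wall contigs, of which 1 had changed. Dotted lines mark a 2-fold difference.

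Among the largest differences, higher contigs outnumbered lower ones. At an adjusted p under 0.05, 58 contigs were more than 4-fold higher in H20 and 46 more than 4-fold lower, and 28 were more than 8-fold higher against 6 more than 8-fold lower. Of the 28, 15 were heat shock or chaperone contigs. By mean level, 22.6% of the 907 contigs at 0.598 to 12.3 RPKM had changed, and 9.71% of the 906 contigs at 51.7 to 3641 RPKM. Among the 190 changed contigs that were higher, 116 had their lowest mean of the 4 ages in H15, and 114 had their highest mean in H6 and not in H20. Among the 301 that were lower, 260 had their lowest mean of the 4 ages in H20. The direction from H15 to H20 fixes part of these counts. A higher contig cannot have its lowest mean in H20 or its highest in H15, nor a lower contig its lowest in H15.

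Genes of the secondary wall were mostly level. Of 78 contigs in 7 lists (cellulose, xylan, monolignols, laccases, transcription factors, arabinogalactan proteins and one-carbon supply), 4 passed the test at an adjusted p under 0.05, beside 41.4% of all contigs. The 95% interval of the log2 fold change lay within 2-fold in both directions for 64 of the 78, as it did for 67.4% of all contigs. Their median log2 fold change was -0.091. A missed test does not show that levels are the same, and for that reason the intervals are given. They rest on a spread shared with H6 and H9, and the fit of H15 and H20 alone called more of the laccases lower.

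Cellulose synthases CesA4, CesA7 and CesA8 together form the complex that spins the cellulose of secondary walls. Their contigs are identified here by the primer pairs that the study designed on them for RT-qPCR, since these are the wall genes that stayed level; the primers are printed 5′ to 3′ in lower case.
CesA4, contig 804, forward primer: ggggtggaatgctaagactg
CesA4, contig 804, reverse primer: ggcttccatttccccaaac
CesA7, contig 6418, forward primer: cctgatgtcaagcaatgtgg
CesA7, contig 6418, reverse primer: tgtatcttgtggggatgcac
CesA8, contig 9355, forward primer: gggagccaaaggaacctg
CesA8, contig 9355, reverse primer: gagctgttcaccacaagtgttac

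CesA4 read 1601, 1695 and 1446 RPKM in H15 and 1425, 1388 and 1449 RPKM in H20. The ages overlapped for CesA4 (95% interval of the log2 fold change -0.62 to 0.26), and they also did for CesA7 and CesA8. CesA7 (symbol IRX3) read 332, 326 and 376 RPKM in H15 and 449, 350.5 and 407 RPKM in H20, with an interval of -0.53 to 0.93. CesA8 (IRX1) read 326, 309.5 and 355 RPKM in H15 and 478, 344 and 393 RPKM in H20, with an interval of -0.34 to 0.88. For both, replicate 1 of H20 was the highest of the 6 libraries. Contig 812, also described as CESA4, read 948.5, 899 and 1073 RPKM in H15 and 1130, 894 and 1021 RPKM in H20, with an interval of -0.55 to 0.62. Of the 6 contigs of cellulose synthesis 0 passed the test, by edgeR at an unadjusted p under 0.05, by DESeq2 or by limma, and all 6 intervals lay within 2-fold, among them COBRA-like protein 4 (IRX6, contig 5530), which went from 98.9 to 109 RPKM.

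Xylan, the main hemicellulose of secondary walls, had 18 contigs, and 0 of them passed the test, with all 18 intervals within 2-fold and a median of -0.10. At an unadjusted p under 0.05, edgeR had 1 higher and 2 lower, DESeq2 called 0 and limma called 1 lower. UXS5, which makes UDP-xylose, read 1147, 1183 and 891 RPKM in H15 and 938, 1138 and 959 RPKM in H20, the ages overlapping. ESK1, a xylan acetyltransferase, read 278, 289 and 261 RPKM in H15 and 228, 245 and 249 RPKM in H20; its libraries did not overlap but the difference missed the test (log2 fold change -0.22 ± 0.22 (SE), adjusted p = 0.43). The 9 contigs of one-carbon supply, which delivers methyl groups for lignin, also had 0 calls by edgeR (1 lower at an unadjusted p under 0.05) and by limma, and 1 higher by DESeq2. ATMS1, a methionine synthase, read 1293, 1350 and 1379 RPKM in H15 and 1378, 1462 and 1373 RPKM in H20.

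Monolignol synthesis, which makes the building blocks of lignin, had 17 contigs, with 1 higher and 1 lower, both named OMT1. OMT1 is the caffeic acid O-methyltransferase of the pathway. Its contig 4361 read 173, 164 and 146 RPKM in H15 and 346, 379.8 and 410.1 RPKM in H20, so that every H20 library was above every H15 library (log2 fold change 1.21 ± 0.26 (SE), adjusted p = 0.0028, edgeR). Contig 8341 of the same name read 29.4, 31.4 and 29.3 RPKM in H15 and 20.7, 16.99 and 17.3 RPKM in H20 and was lower (log2 fold change -0.74 ± 0.17 (SE), adjusted p = 0.0043), while contig 6693, the most abundant of the 3, went from 594 to 618 RPKM with an interval of -0.24 to 0.297. Reads that map to several such near copies were left out of the counts, so that the 3 values are uncertain as values of single genes. PAL2, the entry enzyme of the pathway, C4H, the next enzyme, and CAD4, the last, had intervals of -0.53 to 0.24, -0.32 to 0.27 and -0.36 to 0.47.

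Laccases, which oxidize monolignols in the wall, were the wall list with the lowest median (-0.41 over 14 contigs), and 12 of the 14 estimates were below 0. Only LAC17 contig 20927 passed the test, with 148, 154 and 87.2 RPKM in H15 and 73.1, 87.8 and 76.3 RPKM in H20 and overlapping libraries (log2 fold change -0.75 ± 0.22 (SE), adjusted p = 0.016). LAC4 (IRX12, contig 5768) read 375, 416 and 384 RPKM in H15 and 274, 307 and 294 RPKM in H20; the ages did not overlap, and the difference missed the test (log2 fold change -0.45 ± 0.27 (SE), adjusted p = 0.2). In a fit of the 6 libraries of H15 and H20 alone, which has its own spread and scaling factors, 8 of the 14 laccase contigs were lower. Without replicate 3 of H15, 2 were lower, and 0 to 1 without any 1 of the others. The intervals of only 6 laccases lay within 2-fold.

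Of 11 regulators of the secondary wall, 10 had intervals within 2-fold. MYB46, a master switch of the wall program, read 19.2, 20.5 and 18.04 RPKM in H15 and 16.5, 18.4 and 16.9 RPKM in H20, and NST1 (contig 13708), a NAC factor that turns on fiber walls, went from 34.9 to 33.3 RPKM with an interval of -0.65 to 0.46. VND1, a NAC factor of vessels, went from 31.1 to 29.9 RPKM, and NAC073 (SND2 in Arabidopsis) from 217 to 183 RPKM. BLH1, a BEL1-like homeodomain factor, was the 1 member of 11 that passed, at 18.3, 20.1 and 20.3 RPKM in H15 and 9.6, 10.8 and 10.4 RPKM in H20 (log2 fold change -0.96 ± 0.13 (SE), adjusted p = 0.0001).

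**Figure D2:**
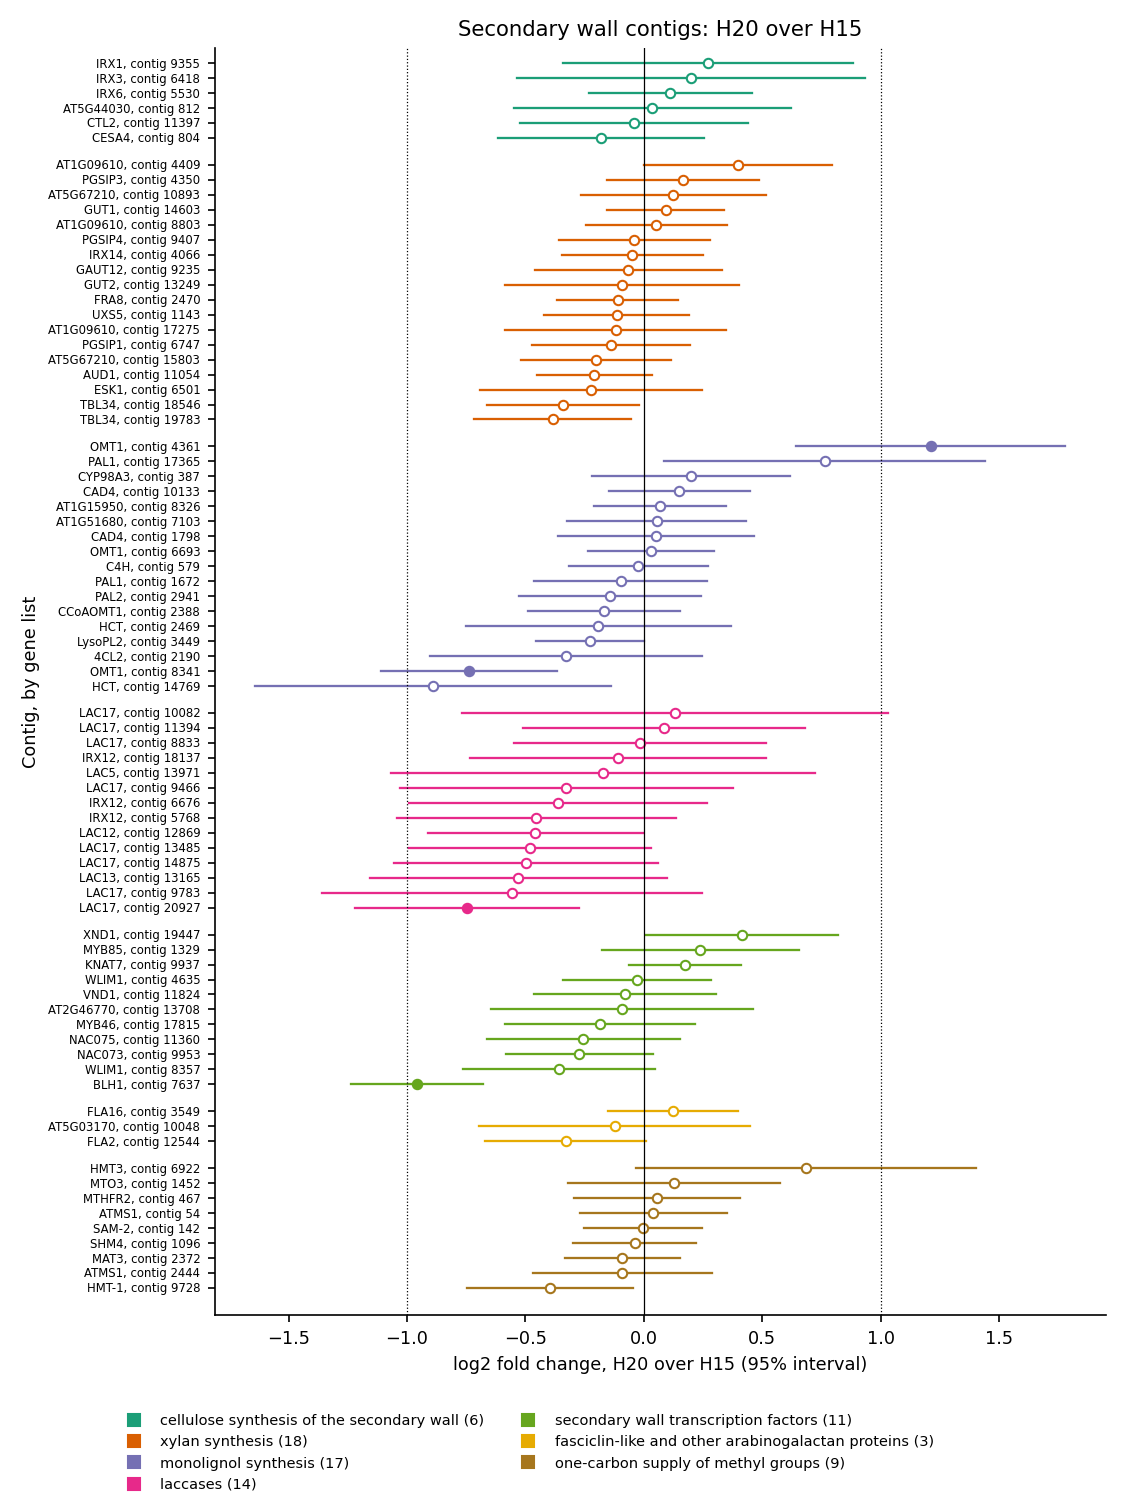
Log2 fold change of H20 over H15 with its 95% interval (horizontal axis) for each of the 78 secondary wall contigs (vertical axis), colored by gene list. Filled points passed the edgeR test at an adjusted p under 0.05 (4 contigs, of which OMT1 contig 4361 lies above the dotted line of a 2-fold difference); the laccases lean to the left of 0.

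Enzymes that loosen and trim the wall matrix moved in both directions. Of 38 pectin contigs, 10 were higher and 9 lower (26.3% and 23.7%, beside 17.0% and 24.4% of all contigs), with a median of 0.12. Pectinesterases remove methyl groups from pectin, and their inhibitor proteins block them. Pectinesterase 53 (AT5G19730, contig 2957) read 6.1, 6.77 and 4.69 RPKM in H15 and 41.1, 32.6 and 32.02 RPKM in H20, so that every H20 library was far above those of H15 (log2 fold change 2.56 ± 0.25 (SE), adjusted p = 9.1e-06), while contig 11862 of the same locus, at under 1 RPKM, was lower. A pectin methylesterase inhibitor-like protein (AT3G17130, contig 9178) rose to a like extent, at 5.14, 7.72 and 7.05 RPKM in H15 and 36.9, 37.7 and 41.6 RPKM in H20 (log2 fold change 2.51 ± 0.17 (SE), adjusted p = 3.3e-07). PME61 (annotated as pectinesterase 35) fell, at 318, 135 and 524 RPKM in H15 and 105, 75.5 and 89.7 RPKM in H20 (log2 fold change -1.87 ± 0.36 (SE), adjusted p = 0.0014). Its pools of H15 differed among themselves by more than those of H20, replicate 2 of H15 being the lowest of the 3, yet all were above H20.

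Class III peroxidases act in the wall on phenolics and peroxide. Of 21 contigs, 3 were higher and 8 lower (14.3% and 38.1%, beside 17.0% and 24.4% of all contigs), with a median of -0.34. PRXR1 (peroxidase 42) was among the 10 most abundant contigs by the mean over both ages and fell from 1857 ± 259.8 to 1150 ± 75.3 RPKM (n = 3; log2 fold change -0.71 ± 0.17 (SE), adjusted p = 0.0048). The contig described as peroxidase ATP2a fell more, with 305, 247 and 306 RPKM in H15 and 75.6, 82.7 and 84.5 RPKM in H20 (log2 fold change -1.85 ± 0.13 (SE), adjusted p = 4.6e-07), and 2 of the 3 contigs of peroxidase 52 were lower at log2 fold changes of -1.204 and -1.09. The third, contig 18987, missed the test at 84.6, 89.3 and 94.3 RPKM in H15 and 128, 108 and 117 RPKM in H20 (log2 fold change 0.37 ± 0.24 (SE), adjusted p = 0.23). Peroxidase 66 (AT5G51890) rose, at 35.8, 31.02 and 37.2 RPKM in H15 and 73.9, 95.8 and 90.8 RPKM in H20 (log2 fold change 1.299 ± 0.24 (SE), adjusted p = 0.00094). AT5G42180, another abundant peroxidase, read 474, 506 and 386 RPKM in H15 and 471, 626 and 559 RPKM in H20, with overlapping ages.

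Expansins loosen walls as cells grow, and 2 of 5 were higher. The expansin-like contig EXPL1 (contig 783) read 32.2, 29.7 and 26.9 RPKM in H15 and 52.9, 70.6 and 61.3 RPKM in H20 (log2 fold change 1.03 ± 0.21 (SE), adjusted p = 0.002), and EXPA1 (contig 3058) read 58.7, 56.9 and 57.9 RPKM in H15 and 93.2, 83.9 and 86.1 RPKM in H20 (log2 fold change 0.58 ± 0.14 (SE), adjusted p = 0.0054); neither overlapped between ages. EXPA8 and EXPA5 missed the test, going from 1.84 to 2.37 RPKM and from 16.1 to 14.5 RPKM. Of 5 xyloglucan endotransglucosylase/hydrolases, which cut and rejoin xyloglucan, XTH5 was higher (log2 fold change 0.45, adjusted p = 0.013), and AT3G44990 (contig 8138) and XTH33 lower (log2 fold change -1.69, adjusted p = 0.00012; log2 fold change -0.81, adjusted p = 0.022). Of the list, 1 of the 5 was lower without H15 replicate 1 or replicate 1 or 2 of H20. Cellulose synthase-like CSLE1 had 4 contigs in the table, of which contig 1306 fell from 28.6 to 13.8 RPKM (log2 fold change -1.08 ± 0.21 (SE), adjusted p = 0.0012) and the other 3 missed the test.

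The largest rises were mostly those of heat shock proteins. Chaperones hold or refold other proteins, and in plants many of their genes are switched on by heat stress factors (HSFs), also outside of heat, for example in seeds. Of 58 contigs of heat shock proteins and chaperones, 42 were higher and 5 lower, with a median log2 fold change of 1.02, where 17.0% of all contigs were higher. Their summed level was 2849 to 3134 RPKM in the libraries of H15 and 8292 to 9628 RPKM in those of H20.

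The contig described as AtHSP101, a disaggregase that pulls proteins out of aggregates, read 7.06, 6.34 and 7.93 RPKM in H15 and 529, 408 and 346 RPKM in H20 (log2 fold change 5.89 ± 0.26 (SE), adjusted p = 9.6e-09, edgeR). HSP90.1 read 12.6, 13.8 and 13.1 RPKM in H15 and 723, 688 and 609 RPKM in H20 (log2 fold change 5.65 ± 0.18 (SE), adjusted p = 6.8e-10). All H20 libraries of both contigs were far above those of H15. Hsp70b, a cytosolic Hsp70, read 38.3, 39.5 and 38.8 RPKM in H15 and 1186, 957 and 810.2 RPKM in H20 (log2 fold change 4.64 ± 0.204 (SE), adjusted p = 9.6e-09). Small heat shock proteins, which bind unfolding proteins without ATP, followed: class II HSP17.6II read 13.4, 13.5 and 11.9 RPKM in H15 and 264, 306 and 303 RPKM in H20 (log2 fold change 4.46 ± 0.21 (SE), adjusted p = 1.8e-08), and the 2 contigs of AT2G29500, an HSP20 family protein, rose from 55.1 to 998 RPKM and from 31.9 to 546 RPKM. HSP21, the small heat shock protein of plastids, read 2.31, 2.97 and 3.13 RPKM in H15 and 119, 59.7 and 38.5 RPKM in H20 (log2 fold change 4.65 ± 0.402 (SE), adjusted p = 3.2e-06), with replicate 1 of H20 far above replicate 3.

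Chaperones of the organelles also rose. CLPB3 and CLPB4, the HSP101 relatives of plastid and mitochondrion, rose from 22.02 to 71.6 RPKM (log2 fold change 1.68, adjusted p = 4.7e-06) and from 7.47 to 47.2 RPKM (log2 fold change 2.64, adjusted p = 9e-08). Chaperonins, the barrel-shaped folding machines of both organelles, moved less: HSP60 went from 87.05 to 181 RPKM (log2 fold change 1.03, adjusted p = 4.8e-05), CPN60A from 60.2 to 151 RPKM (log2 fold change 1.303, adjusted p = 3.8e-06) and CPN20 from 99.6 to 204 RPKM (log2 fold change 1.003, adjusted p = 4.3e-05). The plastid Hsp90 CR88 and the plastid Hsp70 cpHsc70-1 were higher at log2 fold changes of 0.99 and 0.92. In the endoplasmic reticulum, BIP1, its abundant Hsp70, read 528, 576 and 479 RPKM in H15 and 603, 703 and 623 RPKM in H20 and missed the test (log2 fold change 0.26 ± 0.14 (SE), adjusted p = 0.17), and ATERDJ3B, a partner of BiP, went from 81.1 to 90.6 RPKM (adjusted p = 0.43). The 5 contigs that were lower were HSP15.4 (AT4G21870, log2 fold change -2.401) and 4 J-domain proteins, J8 among them (log2 fold change -0.97).

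Of 8 heat stress factor contigs, 4 were higher and 3 lower. HSFA2, which keeps the heat response going, read 3.78, 3.39 and 3.21 RPKM in H15 and 26.7, 18.9 and 11.99 RPKM in H20 (log2 fold change 2.45 ± 0.27 (SE), adjusted p = 2.2e-05), and HSF4 (heat stress factor B-1) read 42.8, 43.04 and 41.9 RPKM in H15 and 81.6, 73.1 and 56.4 RPKM in H20 (log2 fold change 0.70 ± 0.15 (SE), adjusted p = 0.0021). HSFA6B had 2 contigs, of which contig 7210 was lower (log2 fold change -1.54, adjusted p = 5.6e-05) and contig 3824 higher (log2 fold change 0.76, adjusted p = 0.0077). HSF3 (factor A-1b) was lower, from 24.3 to 16.6 RPKM (log2 fold change -0.57, adjusted p = 0.0029). MBF1C, a coactivator of the heat response, read 12.4, 12.8 and 15.3 RPKM in H15 and 348, 228 and 146 RPKM in H20 (log2 fold change 4.13 ± 0.34 (SE), adjusted p = 1.8e-06). In H20, HSFA2, MBF1C and HSP21 were each highest in replicate 1 and lowest in replicate 3, and the lowest was still above all of H15.

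Some contigs outside the chaperone list also rose, by differing amounts. APX2, a cytosolic ascorbate peroxidase that removes peroxide, read 4.09, 3.3 and 3.23 RPKM in H15 and 48.6, 55.1 and 61.2 RPKM in H20 (log2 fold change 3.94 ± 0.23 (SE), adjusted p = 1.3e-07). BAG5 and BAG6, co-chaperones of Hsp70, were higher and went from 12.3 to 104 RPKM and, for BAG6 contig 415, from 251 to 509.6 RPKM. SMP1, annotated as a splicing factor, read 1.11, 0.99 and 1.02 RPKM in H15 and 22.4, 19.5 and 17.1 RPKM in H20 (log2 fold change 4.22 ± 0.21 (SE), adjusted p = 2.8e-08), and the 2 contigs of AT5G48570 rose from 11.8 to 238 RPKM and from 45.7 to 907 RPKM. Of the 58 chaperone contigs, 49 had their highest mean of the 4 ages in H6 and 5 in H20: HSP90.1 stood at 2701 ± 580.5 RPKM in H6 and 14.1 ± 1.13 RPKM in H9 (mean ± SD, n = 3), and Hsp70b at 1801 ± 348 and 75.4 ± 12.8. A highest mean in H6 was not particular to chaperones. It was that of 49 of 53 photosystem contigs, 13 of 14 of the Calvin cycle and 45 of 131 transcription factors. Pools of all ages were from 1 batch, and whether the temperature or the hour at harvest differed between ages is not given in the sources used here; their part in these values was not tested.

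Photosynthesis genes were more often higher than lower, mostly by less than 2-fold. The hypocotyl is green, and its cortex carries chloroplasts. Of the 53 photosystem and antenna contigs, 24 were higher and 2 lower, with a median of 0.31 (16 to 23 higher and 1 to 2 lower with 1 library left out). Of 21 for chlorophyll and carotenoids 9 were higher and 0 lower (median 0.33). Of 14 for the Calvin cycle, which fixes carbon dioxide, 12 were higher and 1 lower (median 0.65). For chlorophyll and carotenoids, edgeR at an unadjusted p under 0.05, DESeq2 and limma also had 0 lower. CAB1, a chlorophyll-binding antenna protein whose contig 126 was the most abundant by the mean over H15 and H20, did not follow: it read 3990, 4211 and 3310 RPKM in H15 and 3345, 3565 and 3422 RPKM in H20, and the ages overlapped (log2 fold change -0.18 ± 0.17 (SE), adjusted p = 0.42).

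Within the Calvin cycle, RBCS1A, the small subunit of Rubisco, read 131, 130.5 and 118 RPKM in H15 and 223, 227 and 198 RPKM in H20 (log2 fold change 0.75 ± 0.11 (SE), adjusted p = 0.00017). FBA2, a plastid aldolase, read 48.1, 50.1 and 48.5 RPKM in H15 and 108, 94.1 and 99.8 RPKM in H20 (log2 fold change 1.01 ± 0.10 (SE), adjusted p = 9e-06), and Rubisco activase (RCA, contig 1241) rose from 222 ± 18.2 to 351 ± 39.4 RPKM (n = 3; log2 fold change 0.63, adjusted p = 0.001). GAPB, SBPASE and PRK, all enzymes of the cycle, were higher at log2 fold changes of 0.73, 0.66 and 0.47. CP12-2, a small protein that ties GAPDH and PRK into an inactive complex in the dark, went the other way, at 232, 207 and 217 RPKM in H15 and 134, 147 and 144 RPKM in H20 (log2 fold change -0.65 ± 0.13 (SE), adjusted p = 0.0015). Of the 14 contigs, 13 had their highest mean of the 4 ages in H6, where RBCS1A stood at 853 ± 69.8 RPKM.

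Among thylakoid proteins, the early light-induced protein ELIP1, which protects against excess light, rose most, at 83.5, 81.3 and 73.6 RPKM in H15 and 501, 451 and 392 RPKM in H20 (log2 fold change 2.47 ± 0.18 (SE), adjusted p = 6.2e-07). Its second contig, 5959, went from 20.8 to 60.8 RPKM (log2 fold change 1.53, adjusted p = 4.2e-05). PSBO2 and PSBP-1 of the oxygen-evolving complex and LHCB3 of the antenna were also higher, going from 252 to 344 RPKM, 189 to 277 RPKM and 235 to 324 RPKM. NPQ4 (PsbS), the switch of heat dissipation in photosystem II, rose from 59.5 to 115 RPKM (log2 fold change 0.93, adjusted p = 6.3e-05). Photosystem I subunits PSAD-2 and PSAO went from 228 to 234 RPKM and 122 to 113 RPKM and missed the test, with intervals of -0.21 to 0.23 and -0.39 to 0.12. In chlorophyll synthesis, CHLI1, CHLM and CRD1 were higher at log2 fold changes of 0.77, 0.75 and 0.61, while PORA went from 42.6 to 37.8 RPKM (adjusted p = 0.29). Of 43 ribosomal contigs, 5 (11.6%) were higher and 0 lower by edgeR (8 and 1 at an unadjusted p under 0.05, 8 and 0 by DESeq2, 6 and 0 by limma). Over all contigs 17.0% were higher and 24.4% lower. RPL12-C moved most (log2 fold change 0.72, adjusted p = 0.0012), and 4 of the 5 are named as proteins of the 50S subunit, the kind found in organelles. With 1 library left out, 1 to 5 were higher (1 without H15 replicate 1, and 3 without H15 replicate 3 or any H20 replicate). It was 14 in the fit of H15 and H20 alone. RPL10B, an abundant cytosolic one, read 799, 801 and 732 RPKM in H15 and 745, 849.8 and 781 RPKM in H20.

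CCD8 makes the precursor of strigolactones, hormones that limit shoot branching and promote cambial growth in Arabidopsis. It read 6.84, 3.77 and 6.28 RPKM in H15 and 14.3, 42.6 and 26.4 RPKM in H20 (log2 fold change 2.28 ± 0.35 (SE), adjusted p = 0.00024), with replicate 2 of H20 far above replicate 1, which was still above all of H15.

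Clock genes moved in both directions. In Arabidopsis the clock runs as a loop in which LHY is made around dawn and represses genes of the later day and evening, such as TOC1, PRR5, GIGANTEA and FKF1. Of 16 clock and flowering time contigs, 3 were higher and 7 lower. FKF1, a blue light receptor that times flowering, read 20.96, 15.1 and 26.1 RPKM in H15 and 1.94, 2.13 and 2.08 RPKM in H20 (log2 fold change -3.36 ± 0.34 (SE), adjusted p = 1.1e-05). TOC1 read 30.99, 28.8 and 35.1 RPKM in H15 and 7.69, 7.59 and 7.6 RPKM in H20 (log2 fold change -2.08 ± 0.12 (SE), adjusted p = 1.2e-07), and the pools of H20 were nearly equal. PRR5 (AT5G24470, contig 9018) read 23.8, 23.2 and 32.02 RPKM in H15 and 4.41, 4.41 and 5.78 RPKM in H20 (log2 fold change -2.46 ± 0.19 (SE), adjusted p = 1.2e-06).

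GIGANTEA (contig 748) went from 92.9 ± 8.33 to 48.7 ± 1.08 RPKM (n = 3; log2 fold change -0.96, adjusted p = 2.8e-05), and AT2G21660 (contig 469) from 538 ± 60.3 to 199 ± 5.82 RPKM (log2 fold change -1.46, adjusted p = 7.1e-06). LHY was higher, at 153, 155 and 154 RPKM in H15 and 270.5, 251 and 248 RPKM in H20 (log2 fold change 0.71 ± 0.104 (SE), adjusted p = 0.00018). So were AT4G15248, a B-box zinc finger protein, from 12.3 to 36.8 RPKM (log2 fold change 1.57, adjusted p = 0.0022), and COL2, a CONSTANS-like factor (log2 fold change 0.497, adjusted p = 0.0031), while EPR1 and REVEILLE 8 missed the test at log2 fold changes of 0.12 and -0.28. TOC1, PRR5, FKF1 and GIGANTEA all had their highest mean of the 4 ages in H15. The hour of sampling at each age was not given in the sources used here, and its part in these values was not tested.

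**Figure D3:**
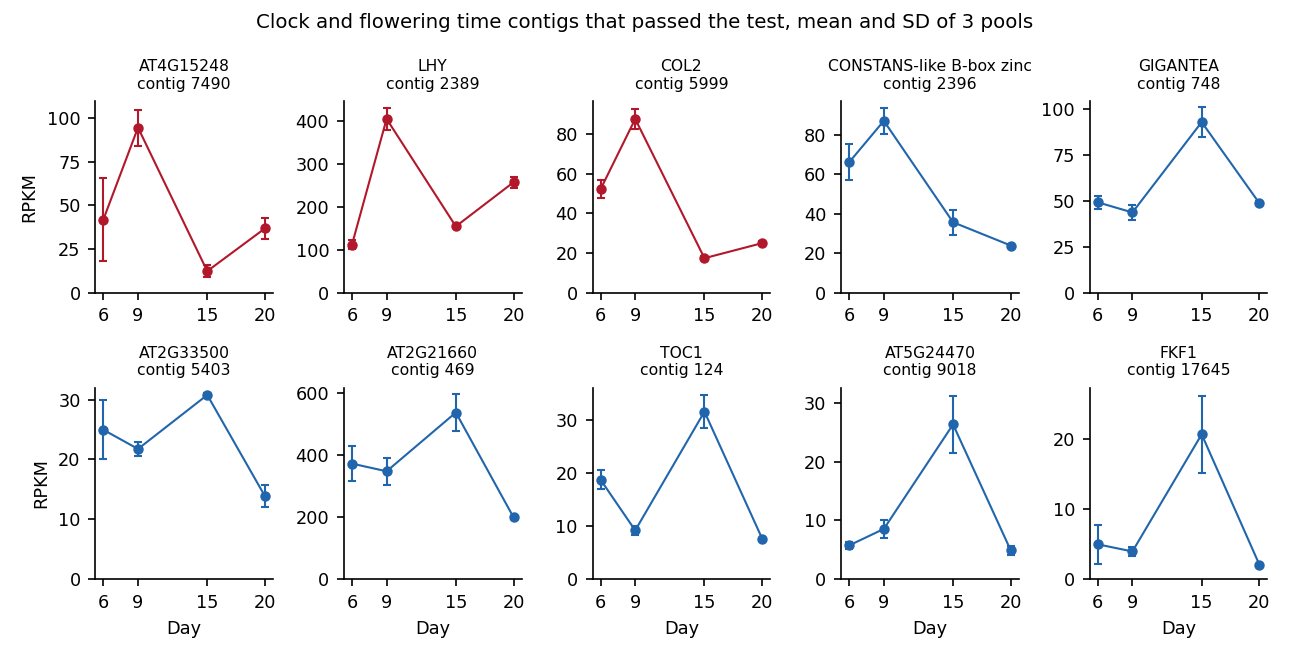
Mean RPKM with SD (vertical axis, n = 3 pools) against day after sowing (horizontal axis) for the 10 clock and flowering time contigs that passed the test between H15 and H20, red where higher in H20 and blue where lower. FKF1, PRR5 (AT5G24470) and TOC1 peak on day 15, when LHY is below its values on days 9 and 20.

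Of 23 light signalling contigs, 6 were higher and 11 lower. With 1 library left out, 3 to 5 were higher (3 without H15 replicate 3 or replicate 1 or 2 of H20). HY5, a bZIP factor of light signalling, went from 29.4 to 43.97 RPKM (log2 fold change 0.55, adjusted p = 0.021), and PIF7, which drives elongation in shade, from 27.9 to 47.2 RPKM (log2 fold change 0.73, adjusted p = 0.0027). PIF3 and PIF5 (PIL6), relatives of PIF7, were lower at log2 fold changes of -0.52 and -0.43. PHOT1, the blue light receptor of bending growth, read 49.99, 40.9 and 69.01 RPKM in H15 and 32.7, 24.4 and 29.6 RPKM in H20 (log2 fold change -0.904 ± 0.17 (SE), adjusted p = 0.0012). PAR1, which restrains shade responses, read 22.2, 24.02 and 16.9 RPKM in H15 and 4.52, 5.57 and 6.4 RPKM in H20 (log2 fold change -1.97 ± 0.25 (SE), adjusted p = 6.7e-05), and SIG4, a factor for plastid transcription, fell at a log2 fold change of -2.02.

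Receptor-like kinases, which sense signals at the cell surface, leaned to lower. Of 63 contigs, 2 were higher and 26 lower (median -0.35), beside 24.4% lower of all contigs. FLS2, the receptor of bacterial flagellin, read 4.94, 3.85 and 4.59 RPKM in H15 and 0.65, 0.87 and 0.67 RPKM in H20 (log2 fold change -2.64 ± 0.19 (SE), adjusted p = 7.6e-07). CRK3, a cysteine-rich receptor kinase, read 12.3, 7.36 and 18.9 RPKM in H15 and 2.52, 2.51 and 3.02 RPKM in H20 (log2 fold change -2.27 ± 0.29 (SE), adjusted p = 6.7e-05). HERK1, a receptor of cell elongation, was lower in both of its contigs (log2 fold changes of -1.36 and -0.51), and BAK1, a partner of many receptors, fell from 13.8 to 10.6 RPKM (log2 fold change -0.41, adjusted p = 0.0062). AT5G18500 and RKL1, among the most abundant of the list, overlapped between ages, with intervals of -0.29 to 0.19 and -0.31 to 0.27.

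Of 19 gibberellin and brassinosteroid contigs, 0 were higher and 8 lower (median -0.32), and 0 were higher at an unadjusted p under 0.05, by DESeq2 or by limma. CPD, an enzyme of brassinosteroid synthesis, read 25.1, 22.1 and 23.6 RPKM in H15 and 15.4, 12.5 and 13.99 RPKM in H20 (log2 fold change -0.78 ± 0.11 (SE), adjusted p = 0.00011), and BEE3, an early brassinosteroid-response factor, read 11.7, 10.8 and 7.27 RPKM in H15 and 2.87, 4.59 and 2.23 RPKM in H20 (log2 fold change -1.66 ± 0.25 (SE), adjusted p = 0.00022). Of 37 auxin contigs, 2 were higher and 15 lower (median -0.19); with library sizes from the deposited contigs the lower ones were 10. IAA14, a repressor of auxin response, read 59.1, 52.5 and 71.3 RPKM in H15 and 15.1, 14.4 and 17.9 RPKM in H20 (log2 fold change -1.97 ± 0.12 (SE), adjusted p = 2.4e-07). The carriers AUX1 (contig 3005) and PGP11 were lower, from 44.2 to 27.7 RPKM and from 138 to 97.7 RPKM, and PIN5, an auxin carrier of the endoplasmic reticulum, was higher (log2 fold change 1.02, adjusted p = 0.0087).

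Of 10 cytokinin contigs, 2 were higher (1 without H20 replicate 3) and 5 lower. LOG1, which releases active cytokinin, read 11.1, 14.5 and 10.3 RPKM in H15 and 3.97, 3.52 and 3.86 RPKM in H20 (log2 fold change -1.69 ± 0.19 (SE), adjusted p = 2e-05), and CKX1, which degrades it, read 4.57, 5.62 and 5.81 RPKM in H15 and 1.25, 1.5 and 1.43 RPKM in H20 (log2 fold change -1.97 ± 0.21 (SE), adjusted p = 1.7e-05). AHP1, a relay protein, fell from 26.6 to 8.59 RPKM (log2 fold change -1.65, adjusted p = 0.00016). ARR9, a response regulator that dampens the signal, was higher in both contigs, from 11.4 to 24.3 RPKM and from 57.7 to 88.3 RPKM. The libraries of the ages did not overlap for any of these contigs.

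Abscisic acid and dehydration contigs numbered 23, with 4 higher and 11 lower (median -0.34). With 1 library left out, 1 to 3 were higher, with 1 without H20 replicate 1, and 8 to 9 lower. The paper reports a higher content of abscisic acid itself in H20 than in H15, H9 or H6. These RNA counts are therefore not a measure of the hormone. NCED4, a carotenoid dioxygenase, read 43.02, 39.5 and 43.8 RPKM in H15 and 14.4, 16.04 and 15.3 RPKM in H20 (log2 fold change -1.49 ± 0.203 (SE), adjusted p = 0.00011), and ERD7 went from 96.4 to 41.5 RPKM (log2 fold change -1.25, adjusted p = 0.00024). GolS2, which starts the synthesis of raffinose sugars, read 85.8, 41.2 and 147 RPKM in H15 and 37.9, 25.3 and 24.7 RPKM in H20; its H15 pools differed widely, with replicate 2 lowest (log2 fold change -1.66 ± 0.35 (SE), adjusted p = 0.0026). DREB2C, a dehydration factor, was lower (log2 fold change -1.199, adjusted p = 0.0007). Of 15 ethylene contigs, 4 were higher and 4 lower (1 to 4 and 2 to 3 with 1 library left out, the 1 without H15 replicate 1). That was 26.7% each, beside 17.0% and 24.4% of all contigs. Of 10 jasmonate contigs 2 were higher and 2 lower (4 lower without H20 replicate 3). The largest was contig 13935, described as an Arabidopsis allene oxide synthase, the first committed enzyme of jasmonate synthesis, at 8.47, 6.71 and 5.98 RPKM in H15 and 48.9, 51.9 and 61.2 RPKM in H20 (log2 fold change 2.91 ± 0.22 (SE), adjusted p = 1e-06). LOX1 was higher and the contig described as AtLOX2 lower (log2 fold changes of 1.28 and -1.01).

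Of the 131 transcription factor contigs that the study lists, 17 were higher and 39 lower (median -0.19). That was 12.98% and 29.77%, beside 17.0% and 24.4% of all contigs. All 3 TCP factors, which govern cell proliferation in leaves, were lower, TCP15 (AT1G69690) the most, from 6.32 to 1.83 RPKM (log2 fold change -1.805, adjusted p = 6.4e-06). Of the 10 contigs of the HB family 6 were lower and 0 higher by edgeR, among them HB21 (log2 fold change -1.70, adjusted p = 0.0003) and ATHB13, which went from 105 to 57.5 RPKM (log2 fold change -0.896, adjusted p = 2.2e-05). NAC2 read 35.7, 31.4 and 44.7 RPKM in H15 and 9.32, 10.4 and 8.62 RPKM in H20 (log2 fold change -2.004 ± 0.14 (SE), adjusted p = 5.8e-07). The largest rise after HSFA2 was bHLH94 (AT1G22490), from 14.4 to 42.7 RPKM (log2 fold change 1.55, adjusted p = 0.00079). The study drew this list from contigs it had selected on these samples, so that the count is not independent evidence of a direction. AN3, a growth coactivator outside that list, read 18.1, 19.4 and 18.4 RPKM in H15 and 3.61, 3.09 and 3.56 RPKM in H20 (log2 fold change -2.47 ± 0.18 (SE), adjusted p = 8.7e-07).

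Ubiquitin ligases and F-box proteins, which choose proteins for breakdown, had 6 of 56 higher and 26 lower (median -0.29). With 1 library left out, 2 to 5 were higher, the 2 without replicate 1 or 2 of H15 or replicate 1 of H20. XBAT31 went from 205 ± 6.54 to 123 ± 1.75 RPKM (n = 3; log2 fold change -0.76, adjusted p = 0.00017), and the F-box protein AT2G36090 read 19.01, 13.4 and 21 RPKM in H15 and 5.91, 4.81 and 5.31 RPKM in H20 (log2 fold change -1.75 ± 0.15 (SE), adjusted p = 3.7e-06). Of 35 contigs of proteases and senescence, 2 were higher and 11 lower (4 higher without H15 replicate 3, 7 lower without H20 replicate 1). RD21, a papain-like protease of vacuoles, read 239, 162 and 294 RPKM in H15 and 109.9, 92.1 and 114 RPKM in H20 (log2 fold change -1.16 ± 0.19 (SE), adjusted p = 0.00041), and RD19 and the vacuolar processing enzyme GAMMA-VPE fell from 226 to 139.9 RPKM and from 312 to 188 RPKM. BFN1 and RNS3, nucleases of dying vessels and senescing tissue, went from 14 to 12.5 RPKM and 11.3 to 12.6 RPKM, and neither passed the test.

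Genes of the cell cycle and the cambium were mostly level. Of 29 contigs of the cell cycle and DNA replication, 0 were higher by edgeR (1 at an unadjusted p under 0.05, 1 by DESeq2, 0 by limma) and 4 lower, with 26 intervals within 2-fold. CYCD61, a D-type cyclin, read 14.5, 16.7 and 11.5 RPKM in H15 and 8.05, 7.9 and 8.29 RPKM in H20 (log2 fold change -0.84 ± 0.19 (SE), adjusted p = 0.0034), and histone H1.2 (AT2G30620) went from 49.3 to 21.6 RPKM (log2 fold change -1.22, adjusted p = 0.00029). Of 11 contigs of cambium and vascular patterning, 0 passed the test (also 0 at an unadjusted p under 0.05, by DESeq2 and by limma) and all 11 intervals lay within 2-fold. WOX4, a homeobox factor that maintains the cambium, went from 75.3 to 82.5 RPKM, with an interval of -0.17 to 0.38, and AT2G36570 (PXC1), a receptor kinase of the vasculature, from 211 to 188 RPKM, with an interval of -0.49 to 0.104. Of 34 microtubule contigs, 1 was higher and 9 lower (3 lower with library sizes from the deposited contigs, 3 without H15 replicate 1, 4 to 6 without any 1 of the others), TUA6 among them, at 278, 331 and 285 RPKM in H15 and 218, 219 and 219.6 RPKM in H20 (log2 fold change -0.47 ± 0.12 (SE), adjusted p = 0.0078), and 33 of the intervals lay within 2-fold.

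Of 9 contigs of sieve elements and phloem, 5 were higher and 1 lower, with a median of 0.82, the second highest among the lists of at least 8 contigs. PP2-A9, a lectin of the phloem, read 60.03, 59.1 and 51.8 RPKM in H15 and 139, 137 and 140.4 RPKM in H20 (log2 fold change 1.26 ± 0.17 (SE), adjusted p = 0.00012). Of 6 contigs matched to AT3G01680, which was counted with the sieve element proteins, 4 were higher. Contig 290 went from 69.9 to 125 RPKM (log2 fold change 0.82, adjusted p = 0.031), and contig 675, the most abundant of the 6, went from 179 to 276 RPKM (adjusted p = 0.095). The 6 share a match and may be parts or copies of 1 gene, so that the count and the median of the list are not those of 9 genes. Leaving out any 1 of the 6 libraries left 2 contigs of the list higher, or 3 without replicate 3 of H15. In whole tissue, more cells of a type and more RNA per cell cannot be told apart.

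Of 48 contigs of sucrose, starch and sugar transport, 13 were higher and 9 lower (5 lower without H20 replicate 2). That was 27.1% and 18.75%, beside 17.0% and 24.4% of all contigs. Sucrose synthase SUS4, which cleaves sucrose, read 1279, 1357 and 1193 RPKM in H15 and 1223, 1391 and 1291 RPKM in H20, with overlapping ages (interval -0.37 to 0.37). Starch enzymes moved in both directions: granule-bound starch synthase (AT1G32900) rose from 10.2 to 20.7 RPKM (log2 fold change 1.004, adjusted p = 0.0079) and AMY2 from 6.4 to 16.6 RPKM (log2 fold change 1.34, adjusted p = 9.5e-05), while the plastid beta-amylase CT-BMY read 67.1, 60.2 and 81.01 RPKM in H15 and 20.2, 16.6 and 18.6 RPKM in H20 (log2 fold change -1.93 ± 0.28 (SE), adjusted p = 0.00015). Sugar transporters named SWEET fell, contig 603 (SWEET7, AT4G10850) from 51.2 to 15.2 RPKM (log2 fold change -1.78, adjusted p = 9e-06) and contig 12581 (SWEET17, AT4G15920) from 6.297 to 1.11 RPKM (log2 fold change -2.53, adjusted p = 0.00022). The vacuolar invertase ATBETAFRUCT4 rose from 28.4 to 63.7 RPKM (log2 fold change 1.14, adjusted p = 9e-05).

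Inositol genes are given here although they were chosen after their values were seen. MIPS2 makes inositol phosphate from glucose 6-phosphate, and it read 16.8, 13.4 and 14.3 RPKM in H15 and 142, 137 and 138 RPKM in H20 (log2 fold change 3.21 ± 0.23 (SE), adjusted p = 5.7e-07). MIOX1 oxidizes inositol to glucuronate, a precursor of wall sugars. Its contig 14402 read 222, 238 and 279.7 RPKM in H15 and 1380, 1248 and 1136 RPKM in H20 (log2 fold change 2.32 ± 0.49 (SE), adjusted p = 0.0023), while contig 2516 of the same name read 62.6, 43.4 and 59.5 RPKM in H15 and 17.1, 12.01 and 14.4 RPKM in H20 and fell (log2 fold change -1.94 ± 0.18 (SE), adjusted p = 5.4e-06). In all, 13 symbols had at least 1 contig higher and at least 1 lower, among them MIOX1, OMT1, HSFA6B and GSTU8, so that a name alone does not give the direction of a contig.

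Water channels also split. TIP13, a vacuolar aquaporin, rose from 1.603 ± 0.553 to 13.1 ± 1.44 RPKM (n = 3; log2 fold change 3.03, adjusted p = 7.3e-06), and the abundant gamma-type tonoplast channel (contig 710) read 515, 505 and 527 RPKM in H15 and 847, 893 and 840.4 RPKM in H20 (log2 fold change 0.71 ± 0.12 (SE), adjusted p = 0.00043). TIP23 read 109.5, 106 and 148 RPKM in H15 and 47.2, 50.7 and 42.8 RPKM in H20 (log2 fold change -1.39 ± 0.16 (SE), adjusted p = 3.1e-05), and NIP51, a boron channel, read 24.3, 17.5 and 27.1 RPKM in H15 and 7.58, 5.83 and 6.54 RPKM in H20 (log2 fold change -1.804 ± 0.21 (SE), adjusted p = 3.6e-05). Of the 9 aquaporin contigs 4 were higher and 3 lower.

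Of 21 contigs of phosphate and sulfur supply, 1 was higher and 8 lower (median -0.29). PHO2, which marks phosphate carriers for breakdown, read 42.2, 37.95 and 59.7 RPKM in H15 and 21.5, 19.1 and 25 RPKM in H20 (log2 fold change -1.12 ± 0.22 (SE), adjusted p = 0.0017), and the sulfate carrier AST91 went from 22.1 to 9.42 RPKM (log2 fold change -1.25, adjusted p = 0.00066). Of 21 contigs for iron and other metals, 7 were higher (4 without H20 replicate 2) and 1 lower, ZIP1, a zinc carrier, having the largest rise (log2 fold change 1.102, adjusted p = 0.0021). Among nitrogen genes, 8 of 39 were higher and 13 lower (20.5% and 33.3%, beside 17.0% and 24.4% of all contigs). The amino acid permease AAP6 read 21.1, 17.5 and 21.3 RPKM in H15 and 58.2, 61.8 and 57.5 RPKM in H20 (log2 fold change 1.55 ± 0.15 (SE), adjusted p = 9.3e-06), an asparaginase-type enzyme (AT3G16150) went from 177 to 475 RPKM (log2 fold change 1.398, adjusted p = 0.00094), and proline dehydrogenase 2 (AT5G38710) fell from 189 to 61.2 RPKM (log2 fold change -1.65, adjusted p = 6.7e-05).

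Among cytochrome P450 enzymes, 7 of 41 were higher and 14 lower (17.07% and 34.15%, beside 17.0% and 24.4% of all contigs). Without H15 replicate 3, 8 were lower. The contig matched to AT5G05260 and described as a phenylalanine N-monooxygenase read 48.3, 29.2 and 53.2 RPKM in H15 and 4.77, 3.74 and 2.74 RPKM in H20 (log2 fold change -3.55 ± 0.28 (SE), adjusted p = 1.6e-06), and the contig with the symbol CYP79A2 read 19.1, 10.6 and 18.6 RPKM in H15 and 4.16, 3.52 and 2.7 RPKM in H20 (log2 fold change -2.23 ± 0.23 (SE), adjusted p = 1.2e-05). These contigs may be parts or copies of the same gene, so that their falls are not independent. CYP78A9 read 40.9, 45.01 and 27.2 RPKM in H15 and 5.75, 4.05 and 4.98 RPKM in H20 (log2 fold change -2.96 ± 0.33 (SE), adjusted p = 2e-05). CYP82G1 read 2.58, 2.23 and 2.56 RPKM in H15 and 13.97, 13.5 and 14.6 RPKM in H20 (log2 fold change 2.49 ± 0.23 (SE), adjusted p = 5.4e-06). In flavonoid synthesis, chalcone synthase TT4 read 11.02, 5.13 and 10.8 RPKM in H15 and 22.8, 26.8 and 22.9 RPKM in H20 (log2 fold change 1.42 ± 0.34 (SE), adjusted p = 0.005) and a chalcone isomerase-like protein (AT5G05270) went from 25.2 to 69.2 RPKM (log2 fold change 1.44, adjusted p = 8.8e-05). Of the 18 contigs of that list 3 were higher and 2 lower (16.7% and 11.1%).

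A GST6-type glutathione transferase (contig 4929) read 40.8, 39.6 and 37.2 RPKM in H15 and 274, 167 and 238 RPKM in H20 (log2 fold change 2.51 ± 0.31 (SE), adjusted p = 4.6e-05), and the abundant contig described as catalase read 815, 675 and 952 RPKM in H15 and 412, 348 and 399.5 RPKM in H20 (log2 fold change -1.096 ± 0.14 (SE), adjusted p = 7.3e-05). The iron superoxide dismutase FSD2 rose from 7.64 to 28.7 RPKM (log2 fold change 1.88, adjusted p = 3.3e-06). Defensin-like LCR69 read 199.5, 219 and 99.5 RPKM in H15 and 436, 591 and 596 RPKM in H20 (log2 fold change 1.62 ± 0.26 (SE), adjusted p = 0.00031), and replicate 3 of H15 was the lowest. A pathogenesis-related protein (AT1G78780) fell from 58.03 to 17.1 RPKM (log2 fold change -1.78, adjusted p = 4.7e-06). Of 48 defense contigs 8 were higher and 12 lower (16.7% and 25%), close to the 17.0% and 24.4% of all contigs. Of 49 redox contigs, 13 were higher and 15 lower (26.5% and 30.6%). With 1 library left out, 4 to 8 defense contigs were higher (4 without replicate 1 or 2 of H15 or replicate 3 of H20). For redox contigs it was 8 to 11 (8 without replicate 1 of H15). WRKY69 was lower from 35.3 to 15.5 RPKM (log2 fold change -1.21, adjusted p = 1.3e-05).

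The largest falls among annotated contigs were not of 1 kind. MEE14 read 36.4, 30.9 and 44.1 RPKM in H15 and 2.37, 2.65 and 3.94 RPKM in H20 (log2 fold change -3.66 ± 0.25 (SE), adjusted p = 4.1e-07), all of H15 being far above all of H20. Other large falls were those of AT1G61820, from 12.01 to 1.397 RPKM, the TPR protein AT4G17940, from 18.3 to 2.42 RPKM, and RL6, a small MYB-like protein, from 19.9 to 3.23 RPKM. The calcium-binding protein CML25 (AT1G24620) read 34.2, 42.7 and 38.5 RPKM in H15 and 7.17, 7.54 and 8.54 RPKM in H20 (log2 fold change -2.34 ± 0.35 (SE), adjusted p = 0.00023). DYL1, a dormancy-associated protein chosen after its values were seen, fell from 488 ± 35.99 to 130.2 ± 14.3 RPKM (n = 3; log2 fold change -1.93, adjusted p = 5.7e-06). Among the 10 most abundant contigs, PRXR1 and contig 61, which has no annotation, were lower. Contig 61 read 3168, 6498 and 4333 RPKM in H15 and 2521, 2608 and 2606 RPKM in H20 (log2 fold change -0.89 ± 0.25 (SE), adjusted p = 0.013), and replicate 2 of H15 stood far above replicate 1.

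By the compartments of the deposited annotation, 55 of 127 contigs of the chloroplast envelope and 60 of 128 of the thylakoid membrane were higher, and 3 and 7 lower. The median log2 fold changes were 0.29 and 0.35. The term chloroplast itself had 274 contigs, 56 higher and 49 lower (20.4% and 17.9%, median 0.04), beside 18.5% higher and 22.6% lower of all contigs with a term. Nuclear contigs were higher in 74 and lower in 125 of 445 (16.6% and 28.1%), and those of the plasma membrane in 52 and 109 of 407 (12.8% and 26.8%). Mitochondrial contigs were even, with 35 of 155 in each direction. Of the 967 contigs without symbol or locus, 50 changed contigs were higher and 101 lower.

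Markers of the tissues in the pools were compared as summed RPKM. Markers of secondary wall xylem and fibers (16 contigs of 7 of the 8 genes listed) summed to 3526 to 3953 in H15 and 3328 to 3469 in H20. Every H20 sum was thus below every H15 sum, with 1 of the 16 contigs lower by the test and 0 higher. The sum left out contig 812, described as CESA4 but without a symbol, which went from 973.5 to 1015 RPKM. Those of the cambium summed to 139 to 177 in H15 and 136 to 161 in H20. Markers of the green cortex summed to 3833 to 4716 in H15 and 4243 to 4354 in H20, with 5 of its 6 contigs higher. Phloem markers (7 contigs of 2 of the 4 genes) summed to 459 to 476 in H15 and 739 to 827 in H20, and 4 of the 7 were higher, all of them matched to AT3G01680. Of the 4 epidermis genes only KCS10 had a contig, and it fell from 7.27 to 2.58 RPKM (log2 fold change -1.52, adjusted p = 0.0018). Endodermis and root hair markers, which this tissue should hold little of, had 1 contig of 5 genes, MYB36, at 15.6 to 15.2 RPKM. The part that the makeup of tissues had in the values of phloem, cuticle and photosynthesis genes was not tested.

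**Figure D4:**
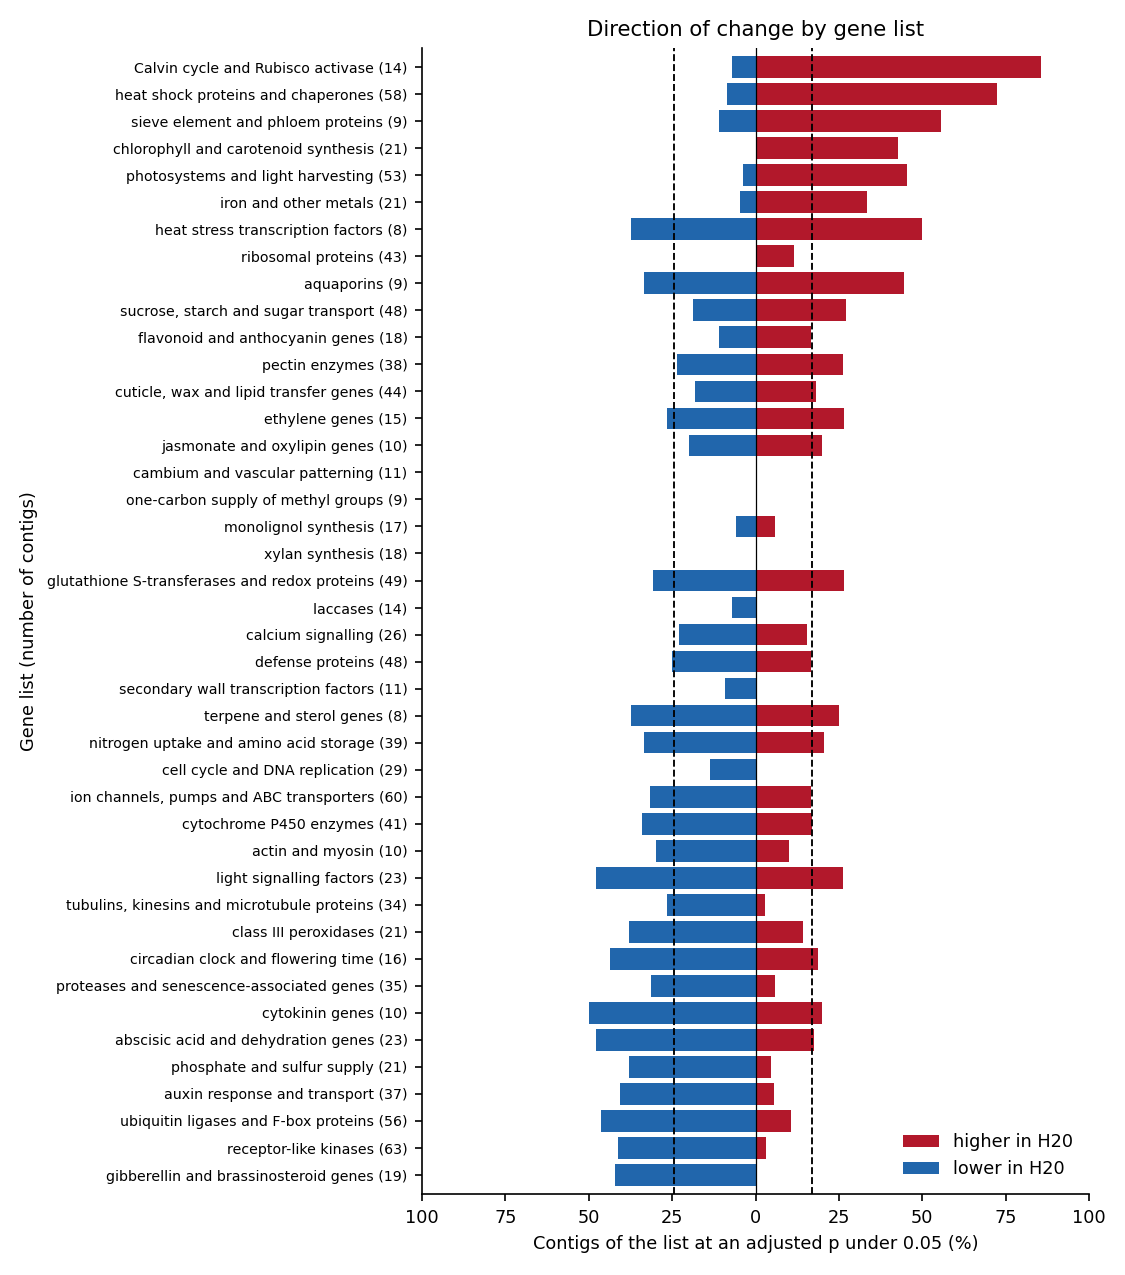
Percent of the contigs of each gene list with at least 8 contigs that were higher (red, to the right) or lower (blue, to the left) in H20 than in H15 at an edgeR adjusted p under 0.05, ordered by the difference of the 2. Dashed lines give the same percentages over all 3622 contigs (17.0 higher, 24.4 lower); the Calvin cycle, chaperone and phloem lists stand at the top, xylan and cambium have no bar, and the gibberellin and brassinosteroid, receptor kinase and ubiquitin lists stand at the bottom.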

How the data were processed

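The mRNA of each pool was made into 1 stranded library. The authors trimmed the reads, assembled them de novo and mapped each library to the contigs. For every contig the deposited table holds raw counts of uniquely mapped reads, 1 column a library. Its RPKM values were scaled by the authors to contig length and mapped reads. The authors kept contigs with at least 10 mapped reads and selected them by an ANOVA over the 4 time points (FDR under 0.05, over 2-fold and 10 RPKM apart). Their p-value column, the deposited FDR, and their mean RPKM columns were not used. There were 0 columns of unknown samples.

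The main test was the quasi-likelihood test of edgeR 4.0.16 on R 4.3.3 (12 libraries in 4 groups, TMM factors on the mapped reads implied by counts, contig length and RPKM), and the contrast H20 minus H15 was adjusted by Benjamini-Hochberg over 3622 contigs. The biological coefficient of variation was 0.168. The filter on low counts removed no contig. Intervals are 95% intervals of this fit, and cover the spread between pools, which differed by more than sampling noise. The code was tested on simulated data. Alternatives were limma 3.58.1 on log2(RPKM + 1) or log2(RPKM + 0.1), DESeq2 1.42.0, other library sizes and filters, a fit of 6 libraries, a replicate block, and each library left out. Levels across genes are compared in RPKM, which is per length.

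Gene lists were built from symbols, loci and descriptions, and false matches were dropped by function. The comparison, the members and the lists were chosen with earlier results of these data known. Genes were named by a rule: the 15 largest rises and falls among annotated contigs at an adjusted p under 0.05, not overlapping and with at least 10 RPKM in the higher group; of each list the 4 largest changes that passed and the 2 most abundant members; genes the paper names; and the 10 most abundant contigs. Some list members beyond this rule were chosen after their values were seen. Contigs with near-identical copies are uncertain, since reads mapping to several were left out.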

Additional observations from a re-analysis of the deposited data

How the results depend on the processing

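Of the 325 contigs named by the rule, 0 reversed under any alternative that was run, while 14 to 20 lost their call with a library left out and 11 with library sizes from the deposited contigs. Against 491 changed contigs as reported, tested against a 2-fold limit (glmTreat) 160 passed, 69 higher and 91 lower, and by adjusted p alone 1498 passed, 614 higher and 884 lower. DESeq2 gave 215 and 284, limma on log2(RPKM + 1) 177 and 227, the 6 libraries alone 216 and 273, and library sizes from the deposited contigs 233 and 245 (762 and 702 without the fold limit), moving the median log2 fold change by 0.096. With 1 library left out, 478 to 527 contigs changed (183 to 217 higher, 261 to 341 lower), 439 to 495 list members passed (187 to 224 higher, 252 to 281 lower), and of the 78 wall contigs 58 to 63 were level and 3 to 6 passed. That range leaves out the fit of the 6 libraries alone, in which more of the laccases were lower than in the main fit. The replicate numbers did not pair the pools: the correlations of same-numbered deviations were -0.11, 0.26 and 0.074. With the replicate number as a block, 187 and 299 contigs rose and fell in 12 libraries, and 222 and 273 in 6. The share of changed contigs was larger at low RPKM, where depth limits precision. P-values hold for pools of 1 batch, and were computed on contigs already selected on these libraries.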

Other observations

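Among calcium signalling contigs, 4 of 26 were higher and 6 lower (15.4% and 23.1%), close to the 17.0% and 24.4% of all contigs. The calmodulin-like protein MSS3 went from 12.2 to 2.91 RPKM and CBL3, a calcium sensor of the tonoplast, from 92.8 to 57.5 RPKM, both lower by edgeR (adjusted p = 0.00039 and 0.00088). Both contigs of annexin ANNAT2, a calcium-dependent membrane-binding protein, were higher, the more abundant from 507 to 693 RPKM (log2 fold change 0.42, adjusted p = 0.0039). Of 60 contigs of ion channels, pumps and ABC transporters, 10 were higher and 19 lower (16.7% and 31.7%). PDR12 was lower, from 14.6 to 5.7 RPKM (log2 fold change -1.38, adjusted p = 0.0014). Without H15 replicate 2, or without H20 replicate 3, 6 of the 60 were higher.

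Of 44 contigs of cuticle, wax and lipid transfer, 8 were higher and 8 lower (18.2% each, beside 17.0% and 24.4% of all contigs). It was 5 higher without H20 replicate 1, and lower 5 without H15 replicate 1, 3 without H15 replicate 3, and 5 without either H20 replicate 2 or 3. WBC11, an exporter of cuticular lipids, went from 10.9 to 4.49 RPKM (log2 fold change -1.299, adjusted p = 0.00071), while AT5G45670, a GDSL esterase/lipase, went from 3.32 to 10.5 RPKM (log2 fold change 1.66, adjusted p = 0.009). Beta-amyrin synthase makes the scaffold of many triterpenes, and of the contigs matched to AT1G78950, contig 1040 went from 15.1 to 5.46 RPKM and was lower (adjusted p = 0.0013) and contig 1360 went from 8.71 to 29.8 RPKM and was higher (adjusted p = 4.9e-05). Of 5 contigs of oxygen deficit 2 were higher, both pyruvate decarboxylases, the first enzyme of ethanol fermentation. In 5 of the 6 fits that left out a library, 1 of the 5 was higher, and 3 were without H20 replicate 1. Pyruvate decarboxylase 1 (AT4G33070) read 40.97, 39.7 and 40.7 RPKM in H15 and 82.7, 118 and 147 RPKM in H20 (log2 fold change 1.49 ± 0.203 (SE), adjusted p = 0.00011), and the ages did not overlap.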
